A study of Mus musculus with 4 samples.

Results

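The collagen chain genes are those whose symbol is Col, a number, the letter a and a further number, the form used for the chains of the numbered collagen types. Of the 23946 gene symbols measured in calvarial bone, 44 have this form, and the rule uses the symbol alone. The measure is FPKM, that is, fragments per kilobase of transcript divided by the size of the library. This unit is per length, so that levels of different chains can be set side by side within a library.

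RNA came from the frontal and parietal calvarial bones of C57BL/6J mice at postnatal day 21, from wild-type and from Twist1+/- animals. The latter are heterozygous for Twist1, a transcription factor of craniofacial development. The authors state a shared litter for the mice used for cell cultures, and do not state it for the RNA. Of these bones the frontal is of neural crest and the parietal of mesodermal origin, and both were taken with the pericranium and the dura mater, so that bone cells were not the only source of RNA. RNA of 12 mice per strain was used, and 4 libraries were analysed, 1 for each genotype and bone; whether a library pools animals is not stated. The authors speak of replicates of these bones and report differential expression with limits on p-value and FDR. Whether a value used here combines replicates is not stated. With 1 library per group available here, no difference has a replicate check, no test was possible, and each difference is one between libraries.

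Collagens are the main structural proteins of the extracellular matrix. Each molecule is a trimer of chains wound into a triple helix, and each chain carries long runs of the triplet Gly-X-Y, because glycine is the only residue small enough for the centre of the helix. In bone, collagen I (chains of Col1a1 and Col1a2) forms the fibrils that are mineralised, with collagens III and V beside it. Collagens II, IX and XI belong to cartilage, collagen X to hypertrophic cartilage, collagen IV to basement membranes and collagen VI to beaded microfibrils around cells.

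The repeat can be read in the exons that encode the helix. In the fibril-forming chains many of these exons are 54 bases long, which is 6 Gly-X-Y triplets. A coding exon is shown for each of the 5 fibril-forming chains that reached 200 FPKM in a library, the most abundant of their class. It is the first exon of 54 bases that starts at a codon boundary and has a glycine codon at the start of all 6 triplets. Those 6 codons are in capitals (mm9, coding strand, 5′ to 3′). The exons lie at chr11:94801218-94801271 (Col1a1, forward strand), chr6:4465481-4465534 (Col1a2, forward), chr1:45382205-45382258 (Col3a1, forward), chr1:45491737-45491790 (Col5a2, reverse) and chr17:34188425-34188478 (Col11a2, forward).
Col1a1: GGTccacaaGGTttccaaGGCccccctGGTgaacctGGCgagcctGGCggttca
Col1a2: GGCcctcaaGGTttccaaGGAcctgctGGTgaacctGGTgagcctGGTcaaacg
Col3a1: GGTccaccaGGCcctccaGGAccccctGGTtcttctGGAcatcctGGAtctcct
Col5a2: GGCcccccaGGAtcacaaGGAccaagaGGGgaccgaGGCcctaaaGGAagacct
Col11a2: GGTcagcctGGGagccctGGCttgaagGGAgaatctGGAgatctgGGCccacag
The 6 capital codons in each exon follow from this choice of exon. The Col1a1 exon holds a further glycine codon, ggt, among the lower-case bases. The other codons as a set differ from chain to chain.

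The same structure held across the gene set in the GENCODE annotation of mm9. A run of at least 10 Gly-X-Y triplets was encoded by 44 of 44 chains and by 47 of 22550 other genes (0.208%). The longest run was 216 to 344 triplets (median 338) in the 11 fibril-forming chains, 113 triplets in each of the collagen IX chains and in Col22a1, and 39 to 66 triplets in the 6 collagen IV chains, whose helix is interrupted many times. Exons of exactly 54 bases made up 305 of 649 coding exons (47.0%) in the fibril-forming genes, 469 of 2006 (23.4%) over all chains and 0.422% in other genes. The short-chain genes Col8a1, Col8a2 and Col10a1 had none, since their helix lies in few large exons. Chain transcripts were long (median 5896.5 bases against 2196.5 in other genes) and rich in GC (median 56.0% against 49.6%), and both properties matter for ratios between these libraries, as described with the comparisons.

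**Figure D1:**
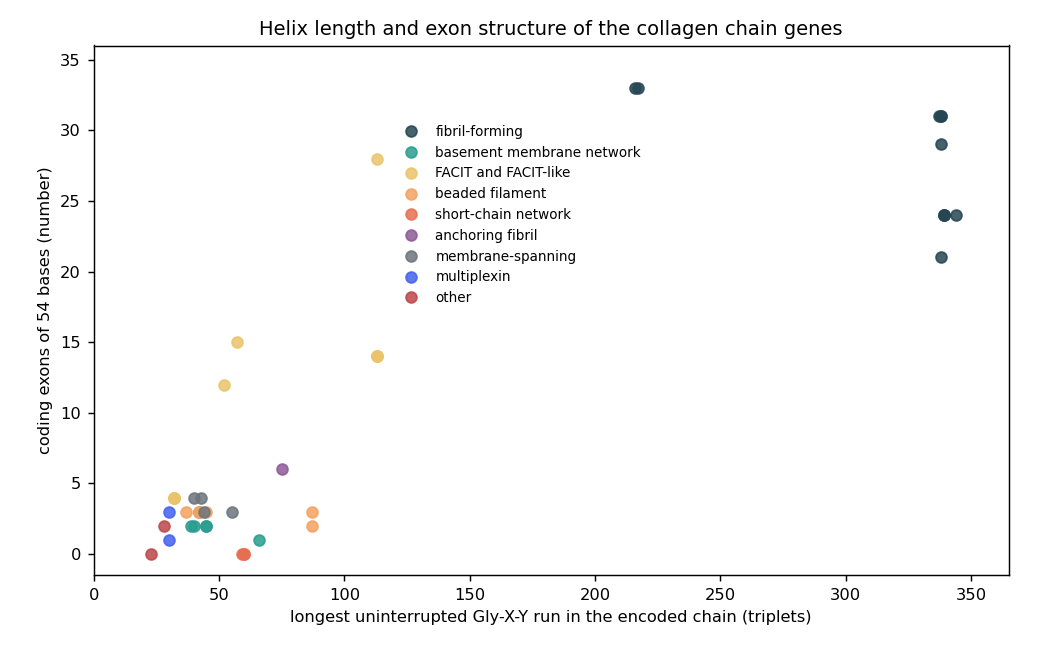
Number of coding exons of 54 bases (vertical axis) against the longest uninterrupted Gly-X-Y run in triplets (horizontal axis), 1 point for each of the 44 chain genes, coloured by structural class. The 11 fibril-forming chains stand alone to the right with runs of 216 to 344 triplets and 21 to 33 such exons, and the short-chain genes sit at 0 exons.

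Facts of the whole set of libraries limit what can be read. Twist1 stood at 59.0 FPKM in the wild-type frontal library, 52.5 FPKM in the wild-type parietal one, 30.4 FPKM in Twist1+/- frontal bone and 50.7 FPKM in the parietal library labelled Twist1+/-, so that the genotype label is not visible in Twist1 between the parietal libraries. That library is therefore called by its label throughout. FPKM values do not give the depth. A rough gauge is the ratio at which most genes of 0.005 to 0.1 FPKM gathered. By it, 1 read was worth 0.973 times as many FPKM in the parietal library labelled Twist1+/- as in wild-type parietal bone. For Twist1+/- frontal against wild-type frontal bone the value was 1.27. Only 17.5% of 513 and 18.3% of 776 such genes lay within 0.1 of these ratios on the log2 scale, so the gauge is weak. Osteoblast and osteocyte markers were present at 12 of 12 in every library, with summed levels of 13310 to 21457 FPKM. Markers of other tissues differed between libraries: the summed skeletal muscle list came to 132 FPKM for the wild-type frontal library and 1587 to 4306 FPKM in the other libraries, the nasal list to 21.0 FPKM for the wild-type parietal library and 293 to 1575 FPKM elsewhere, the neuron and glia list to 68.8 FPKM there and 360.0 to 392 FPKM elsewhere, and the meninges list to 2070 FPKM for the wild-type frontal library and 113 to 492 FPKM elsewhere. The osteoclast list ran from 2636 to 9209 FPKM, highest in wild-type parietal bone, and the stratified epithelium list from 3.36 to 12.3 FPKM.

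Most chain genes were expressed. Of the 44 chains, 33 reached 1 FPKM in at least 1 library, 27 did so in every library, 16 reached 10 FPKM in every library and 9 reached 100 FPKM in at least 1. The number at or above 1 FPKM was 28 and 33 in the wild-type frontal and parietal libraries, 27 in Twist1+/- frontal bone and 29 in the parietal library labelled Twist1+/-. The 11 chains below 1 FPKM everywhere were Col4a3, Col4a4, Col4a5, Col4a6, Col6a4, Col6a6, Col7a1, Col17a1, Col19a1, Col20a1 and Col28a1. They include the 4 tissue-restricted basement membrane chains, the anchoring fibril chain Col7a1 of skin and the hemidesmosome chain Col17a1, and their values lay between 0.0197 FPKM (Col6a4) and 0.923 FPKM (Col4a5).

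**Figure D2:**
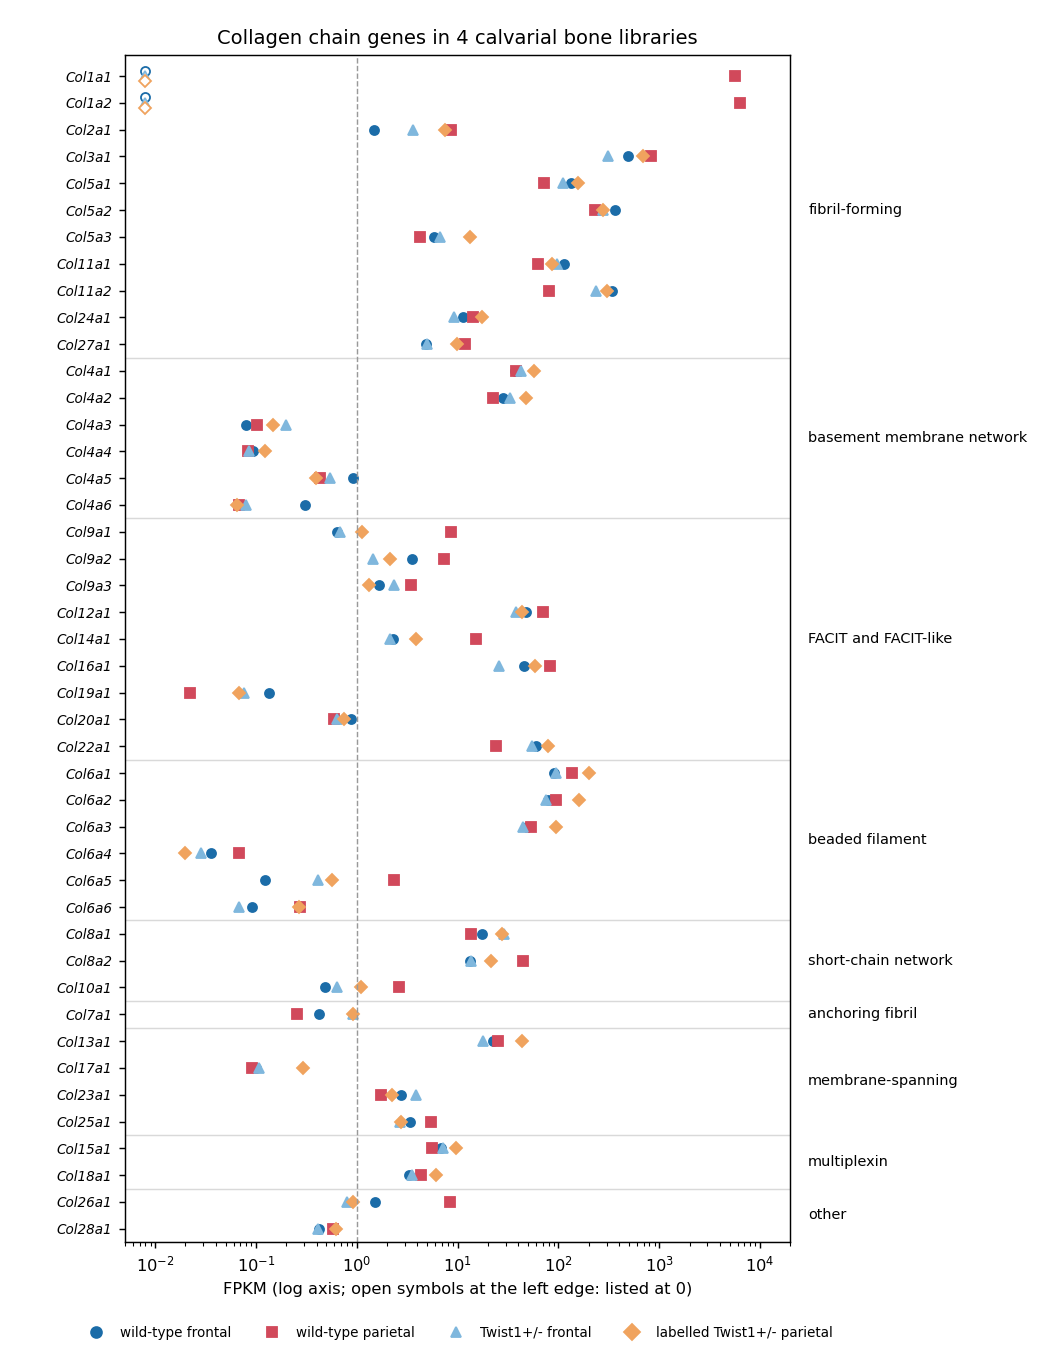
FPKM (log axis) of the 44 collagen chain genes in 4 libraries, 1 symbol per library, grouped by structural class. Open symbols at the left edge are values listed at 0; Col1a1 and Col1a2 reach 5595 and 6326 FPKM in the wild-type parietal library and are listed at 0 in the other libraries, and the dashed line marks 1 FPKM.

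Col1a1 and Col1a2, which encode the chains of collagen I, could be read in 1 library only. In wild-type parietal bone Col1a1 was listed at 5595 FPKM and Col1a2 at 6326 FPKM, a ratio of 0.885, and the pair held 85.8% of the summed FPKM of all chains. Both genes are listed at 0 in each frontal library and in the parietal library labelled Twist1+/-. These zeros are gaps in the quantification and not a lack of collagen I RNA in bone: the osteoblast gene Bglap stood between 5220 and 7982 FPKM in the 4 libraries, and Serpinh1, the chaperone specific to procollagen, between 652 and 1107 FPKM. No ratio between libraries is given for these chains.

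The zeros fell on genes of very high output. Multiplied by the length of the longest coding transcript, as a rough scale of the fragments a gene yields, Col1a2 ranked 1 and Col1a1 ranked 2 of the annotated genes in wild-type parietal bone, with 33824 and 33180 FPKM × kb. The β-globin gene Hbb-b1 ranked 3 (19391 FPKM × kb) and the α-globin gene Hba-a1 ranked 7, and both stand at 0 for the wild-type frontal library while they have 11198 to 27525 FPKM in the others. Spp1 and Sparc, at ranks 4 and 5, have values in every library, so rank alone does not separate the genes listed at 0. Col3a1, at rank 12 (4593 FPKM × kb), has values in all 4. Over all genes, 93 reached 1000 FPKM in some library, 5 of these are listed at 0 in another, and Col1a1 and Col1a2 are 2 of the 5. What removed the values was not tested.

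Among the other fibril-forming chains, Col3a1 had the highest level in every library. Values here and for the chains that follow are given in the order wild-type frontal, wild-type parietal, Twist1+/- frontal and labelled Twist1+/- parietal bone. Col3a1, the single chain of collagen III, was at 486, 825, 310.0 and 695 FPKM, which put both parietal libraries above both frontal ones. Col5a2, a chain of collagen V, which sets the diameter of collagen I fibrils, was at 364, 232, 276 and 275 FPKM. Its partner Col5a1 was at 133, 71.4, 110.3 and 157 FPKM, and the less common chain Col5a3 at 5.79, 4.25, 6.66 and 13.3 FPKM. All of the collagen V chains had their lowest value in wild-type parietal bone.

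Collagen XI, which nucleates thin fibrils in cartilage and is also made by osteoblasts, was abundant. Col11a2 was at 337, 79.9, 236 and 305 FPKM and Col11a1 at 114, 62.2, 97.7 and 86.5 FPKM. As for collagen V, wild-type parietal bone was the lowest of the 4 for both chains. Col2a1, the defining chain of cartilage collagen and also a partner of the collagen XI chains, was far lower, at 1.49, 8.61, 3.65 and 7.57 FPKM. The late members Col24a1, described in developing bone, and Col27a1, described in cartilage, were at 11.3, 14.1, 9.27 and 17.3 FPKM and at 4.88, 12.0, 4.93 and 9.93 FPKM, both higher in each parietal library than in either frontal one; for Col24a1 the difference between the wild-type libraries turned when they were scaled to Gapdh.

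The basement membrane chains present in most tissues, Col4a1 and Col4a2, were at moderate levels. Col4a1 was at 37.2, 38.0, 42.3 and 57.9 FPKM and Col4a2 at 28.5, 22.2, 33.4 and 47.2 FPKM, with the highest values of both in the parietal library labelled Twist1+/-. The chains Col4a3 to Col4a6, known from kidney and other special basement membranes, stayed between 0.0649 and 0.923 FPKM. The summed level of 10 endothelial markers, all above 1 FPKM in each library, was 221, 219.6, 237 and 294 FPKM, highest in the same library as Col4a1 and Col4a2; its part in their values was not tested.

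The FACIT chains, which sit on the surface of fibrils and do not form fibrils themselves, fell into abundant and low members. Col12a1, found in dense connective tissue and periosteum, was at 47.6, 70.7, 38.2 and 44.0 FPKM and Col16a1 at 45.2, 82.4, 25.6 and 59.0 FPKM. Col22a1, known from tissue junctions such as that of muscle and tendon, was at 60.5, 24.1, 54.5 and 79.2 FPKM. It was the only chain of this class at or above 10 FPKM with its lowest value in wild-type parietal bone. Col14a1, of tendon, skin and other fibrous tissue, was at 2.31, 15.2, 2.14 and 3.84 FPKM.

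Collagen IX, which decorates collagen II fibrils in cartilage, was low. Col9a1 was at 0.633, 8.61, 0.678 and 1.13 FPKM, Col9a2 at 3.50, 7.37, 1.46 and 2.16 FPKM, and Col9a3 at 1.65, 3.48, 2.32 and 1.31 FPKM. Wild-type parietal bone had the highest value of each of the 3 chains. Col9a3 shares 234 exonic bases with Tcfl5 on the opposite strand; the libraries were made with a stranded kit, but the strand setting used in counting is not stated, so reads of the overlap may belong to either gene.

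The main chains of the collagen VI microfibril were highest in the same library. Col6a1 was at 91.3, 135, 94.4 and 201 FPKM, Col6a2 at 78.3, 93.8, 75.1 and 159 FPKM and Col6a3 at 48.3, 53.9, 45.0 and 95.3 FPKM. For each of them the parietal library labelled Twist1+/- was the highest, at 1.49, 1.69 and 1.77 times the next library, which was wild-type parietal bone. With the trend of ratios with GC content subtracted, as described with the comparisons, the log2 ratio of these parietal libraries went from 0.57 to 0.13 for Col6a1. It went from 0.76 to 0.22 for Col6a2 and from 0.82 to 0.67 for Col6a3. Of the chains that can replace Col6a3, Col6a5 was at 0.123, 2.34, 0.408 and 0.571 FPKM, while Col6a4 and Col6a6 reached at most 0.275 FPKM. Col6a5 and Col6a6 share 272 windows of 75 bases (2.95% and 3.87% of their transcripts), so a small part of their reads could be assigned to either, and no other pair of chains shares a window of that length.

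The short-chain network genes differed from each other. Col8a1 was at 17.6, 13.7, 28.9 and 27.6 FPKM, higher in both libraries labelled Twist1+/- than in the wild-type libraries. Col8a2, the second chain of collagen VIII, was at 13.1, 44.1, 13.5 and 21.5 FPKM. Col10a1, the marker of hypertrophic chondrocytes, was at 0.485, 2.60, 0.643 and 1.09 FPKM, low in all 4 libraries and highest in wild-type parietal bone.

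The remaining chains were at moderate or low levels. Among the membrane-spanning chains, Col13a1 was at 22.4, 25.3, 17.8 and 43.4 FPKM, Col23a1 at 2.72, 1.76, 3.88 and 2.22 FPKM, and Col25a1 at 3.34, 5.40, 2.69 and 2.73 FPKM. Of the multiplexins, whose C-terminal fragments include endostatin (from Col18a1), Col15a1 was at 6.84, 5.59, 7.11 and 9.68 FPKM and Col18a1 at 3.33, 4.36, 3.55 and 6.10 FPKM. Col26a1 was at 1.52, 8.47, 0.798 and 0.919 FPKM, so that wild-type parietal bone held 5.56 times the next library.

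The comparison of the parietal libraries asks what goes with the Twist1+/- label in the mesoderm-derived bone. Between them 3 chains were more than 3-fold higher in the parietal library labelled Twist1+/- and 5 were more than 3-fold lower than in wild-type parietal bone. The higher chains were Col11a2 (3.81-fold), Col22a1 (3.28-fold) and Col5a3 (3.12-fold). The lower chains were Col26a1, Col9a1, Col6a5, Col14a1 and Col9a2, which in wild-type parietal bone were 9.22, 7.63, 4.10, 3.97 and 3.42 times as high. A ratio was given to 31 chains, those with no value of 0 in the pair and a higher value of at least 1 FPKM, so 3 of 31 is 9.68% and 5 of 31 is 16.1%, against 4.88% and 2.55% of all 13800 genes given a ratio. The median log2 ratio was 0.29 over the chains and -0.06 over all genes, with 17 chains above 0 and 14 below. With the trend of ratios with GC content, described with the other measures that moved here, subtracted, the chain median was 0.069.

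By class, 6 of 9 fibril-forming chains were higher in the parietal library labelled Twist1+/- and 6 of 7 FACIT chains were lower, Col22a1 being the exception. Scaling to Gapdh, which was 0.39 lower on the log2 scale in the parietal library labelled Twist1+/-, turned the 3 lower fibril-forming chains Col2a1 (to 0.21), Col3a1 (to 0.14) and Col27a1 (to 0.12) to higher. The class medians of the log2 ratio were 0.29 for fibril-forming, 0.85 for the 2 basement membrane chains, 0.67 for the 4 collagen VI chains, -1.41 for FACIT and -1.04 for the 3 short-chain genes. Col2a1 differed little between these libraries (1.14-fold higher in wild-type parietal bone), while Col9a1 and Col9a2, chains of the collagen that accompanies it in cartilage, were past the 3-fold limit.

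Other measures moved with these ratios. The ratio of all genes in this comparison rose with the GC content of the transcript, from a median log2 of -0.61 in the group of genes lowest in GC to 0.70 in the group highest in GC. With this trend subtracted, the log2 ratio of Col11a2 (63.1% GC) went from 1.93 to 1.23 and that of Col5a3 (61.6% GC) from 1.64 to 0.94, both then under 3-fold, and Col9a3 (58.4% GC) went to -1.94, past it, so that the split of the calls became 1 higher and 6 lower. With 1 FPKM added to each value, Col5a3 (1.44), Col9a2 (-1.41) and Col6a5 (-1.09) went under 3-fold. With a floor of 10 FPKM the split was 3 higher and 1 lower, and with Gapdh scaling it was 3 higher and 4 lower, Col9a2 (-1.38) going under the limit. Of all genes given a ratio 7.43% were past 3-fold. That share was 5.95% with the GC trend subtracted, 3.73% with that floor and 9.24% with Gapdh scaling. Chondrocyte markers, of which 12 of 14 were measured, summed to 77.5 FPKM in wild-type parietal bone, where 11 were at or above 1 FPKM. In the parietal library labelled Twist1+/- they summed to 47.8 FPKM, and 8 were at or above 1 FPKM. The cartilage matrix gene Lect1 was at 15.4 against 1.32 FPKM, and Matn1 at 2.96 FPKM against a value listed at 0. Of the 10 markers given a ratio, 2 went the other way, the cartilage factor Sox9 (2.15 against 5.12 FPKM) and Comp (5.94 against 12.4 FPKM). The 7 tendon and fibrous tissue markers summed to 334 against 251 FPKM, a difference that rests on the tendon marker Tnmd, at 142 against 29.2 FPKM, while Scx (5.65 against 11.8 FPKM), Fmod (117 against 139 FPKM) and Dpt (57.9 against 63.9 FPKM) went the other way. The part of GC content or of these tissues in the chain ratios was not tested, and in bulk RNA fewer cells of a type and less RNA per cell cannot be told apart.

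Between the frontal libraries, the same question in the neural crest-derived bone, no chain was past 3-fold in either direction among the 28 given a ratio, against 2.86% of 14259 genes more than 3-fold higher in Twist1+/- frontal bone and 0.477% more than 3-fold lower, so a count of 0 among 28 is near the share of all genes. The log2 ratios ran from -1.26 (Col9a2) to 1.30 (Col2a1), with a median of -0.11 against -0.04 over all genes, and 12 chains were above 0 and 16 below. Gapdh was 0.10 higher on the log2 scale in Twist1+/- frontal bone. With the libraries scaled to it, Col6a1, Col8a2, Col15a1, Col18a1 and Col27a1 turned from higher to lower. Col8a2 and Col27a1 also did so with the GC trend subtracted. Of the fibril-forming chains 6 of 9 were lower in Twist1+/- frontal bone, among them Col3a1 (0.638-fold), Col5a2 (0.758-fold) and Col11a2 (0.700-fold). Col16a1 was at 0.566-fold and Col8a1 at 1.65-fold. The largest differences, those of Col2a1 and Col9a2, were between values of 1.46 to 3.65 FPKM. In the same libraries the skeletal muscle list summed to 132 against 1587 FPKM and the meninges list to 2070 against 387 FPKM; their part in the chain ratios was not tested.

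**Figure D3:**
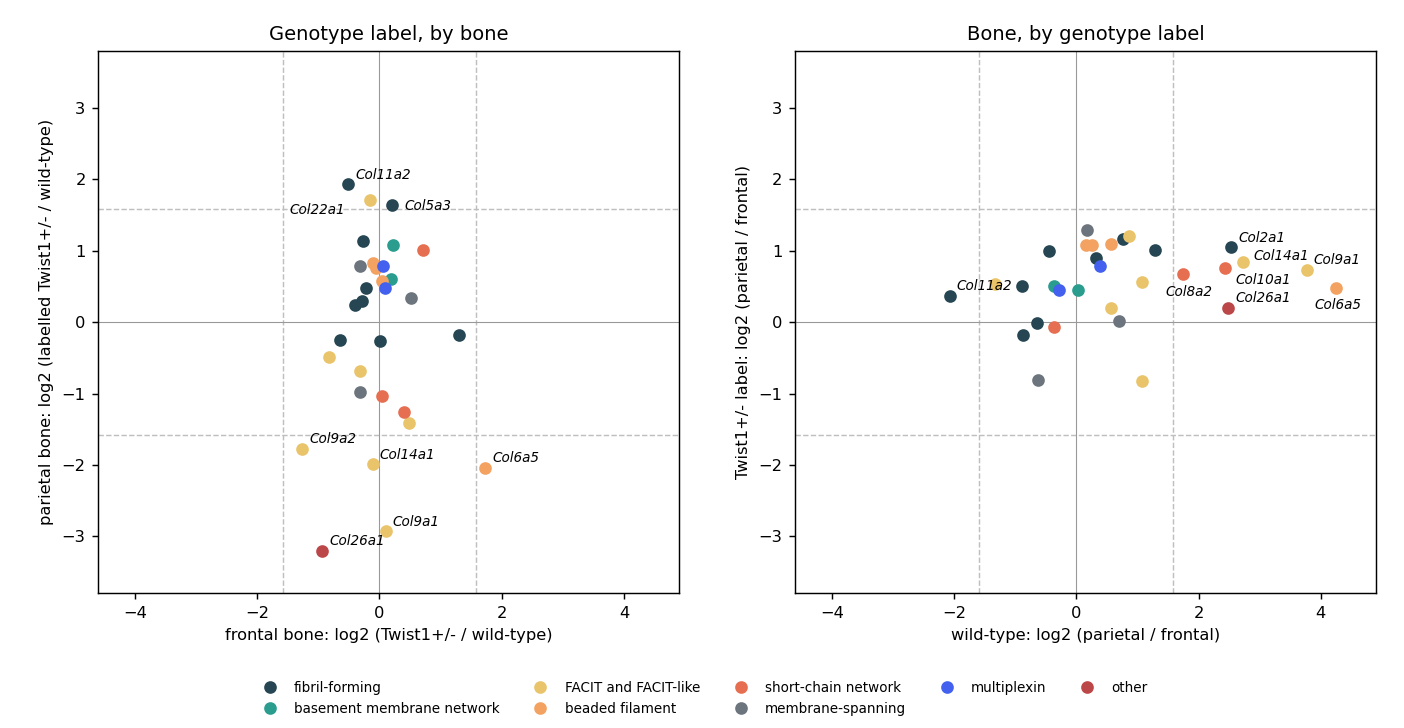
Log2 ratios of FPKM for the 31 chains above 0 in every library and at or above 1 FPKM in at least 1, coloured by class. Left, the genotype label in frontal bone (horizontal) and parietal bone (vertical); right, parietal over frontal bone in wild-type (horizontal) and under the Twist1+/- label (vertical). Dashed lines mark 3-fold; the points spread past them on the parietal and on the wild-type axes, and on the other axes only Col6a5 does, in frontal bone, from values of 0.123 and 0.408 FPKM.

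Between the wild-type libraries, the comparison of the 2 bones, 7 chains were more than 3-fold higher in parietal than in frontal bone and 1 was more than 3-fold lower. The higher chains were Col6a5 (19.0-fold), Col9a1 (13.6-fold), Col14a1 (6.60-fold), Col2a1 (5.79-fold), Col26a1 (5.56-fold), Col10a1 (5.37-fold) and Col8a2 (3.36-fold), and the lower chain was Col11a2, 4.21-fold higher in frontal bone. Among the 31 chains given a ratio this is 22.6% and 3.23%, against 3.77% and 8.93% of 14120 genes. Of the higher chains, Col2a1, Col9a1 and Col10a1 are cartilage collagens and Col14a1 is a chain of tendon and fibrous tissue. The lower chain Col11a2 also belongs to a cartilage collagen, one that osteoblasts make too, and its partner Col11a1 was lower as well (0.546-fold). Only Col14a1 and Col8a2 among the 7 reached 10 FPKM.

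The median log2 ratio of the chains was 0.39, against -0.01 over all genes, and 21 chains were above 0 and 10 below. Gapdh was 0.44 higher on the log2 scale in wild-type parietal bone, and with the libraries scaled to it the chain median became -0.06, with Col4a1, Col6a2, Col6a3, Col13a1, Col18a1 and Col24a1 turning from higher to lower. The calls above 3-fold kept their direction under that scaling, with Col8a2 going under the limit (1.30) and Col22a1 passing it as lower (-1.77), a split of 6 higher and 2 lower. Of all genes 15.7% were past 3-fold under that scaling and 12.7% without it. With 1 FPKM added to each value Col6a5 (1.57) and Col10a1 (1.28) went under the limit. By class, 6 of 7 FACIT and 4 of 4 collagen VI chains were higher in parietal bone, the latter with 2 of them turning under Gapdh scaling, and the collagen V and XI chains were lower, at 0.537-fold for Col5a1, 0.637-fold for Col5a2, 0.734-fold for Col5a3 and 0.546-fold for Col11a1. In the same libraries the chondrocyte list summed to 34.5 FPKM in frontal and 77.5 FPKM in parietal bone, with 7 and 11 of 12 markers at or above 1 FPKM and none listed at 0. Its gene Lect1 was at 0.611 against 15.4 FPKM and Ucma, of the same list, at 0.0985 against 5.22 FPKM, while the cartilage factors Sox9 (4.54 against 2.15 FPKM) and Sox6 (12.0 against 6.21 FPKM) were lower in parietal bone. The tendon list summed to 139.9 against 334 FPKM. The ratio of all genes fell with transcript length here, from a median log2 of 0.87 in the group of the shortest transcripts to -0.36 in that of the longest; the chains, most of them long, were above the latter on median, and with this trend subtracted Col27a1 also passed 3-fold (1.66). The part of these tissues in the chain ratios was not tested.

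Between the libraries labelled Twist1+/-, parietal against frontal bone, no chain passed 3-fold in either direction among the 29 given a ratio, against 0.667% of 14236 genes more than 3-fold higher in the parietal library and 2.96% more than 3-fold lower. The chains were nonetheless mostly on the higher side, with 24 above 0 and 5 below and a median log2 ratio of 0.67 against -0.03 over all genes. The 3 main collagen VI chains were 2.12- to 2.13-fold higher, Col13a1 2.44-fold, Col16a1 2.31-fold, Col3a1 2.24-fold, Col2a1 2.07-fold and Col27a1 2.01-fold. Lower were Col9a3 (0.565-fold), Col23a1 (0.572-fold), Col11a1 (0.885-fold), Col8a1 (0.955-fold) and Col5a2, nearly equal at 0.996-fold; the signs of Col5a2, Col8a1 and Col11a1, and of Col11a2 and Col25a1 on the higher side, turned under at least 1 other scaling or with a trend subtracted. In the same libraries the ratio of all genes rose with GC content, from -0.50 to 0.42 between the lowest and highest group, and with this trend subtracted the chain median was 0.45. The ratio of all genes also fell with transcript length, from 0.47 in the group of the shortest transcripts to -0.49 in that of the longest. With the length trend subtracted the chain median was 0.91. Each of the 4 comparisons shares a library with 2 of the others, so they are not independent of one another.

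Set against all genes, with no adjustment for GC content, few chains were lowest in the parietal library labelled Twist1+/-. Chain transcripts were rich in GC (median 56.0% against 49.6% in other genes). The ratio of all genes in that library to wild-type parietal and to Twist1+/- frontal bone rose with GC content. The part of GC content in the shares of highest and lowest values was not tested. Among the 31 chains above 0 everywhere and at or above 1 FPKM in some library, wild-type parietal bone held the highest value of 14 (45.2%, against 35.7% of all 14542 such genes) and the parietal library labelled Twist1+/- that of 12 (38.7%, against 21.9%). The wild-type and Twist1+/- frontal libraries held the highest value of 3 and 2 chains (9.68% and 6.45%, against 27.0% and 15.3% of all genes). The lowest value fell in the parietal library labelled Twist1+/- for 1 chain, Col9a3 (3.23%, against 27.2% of all genes), and in wild-type frontal, wild-type parietal and Twist1+/- frontal bone for 9, 10 and 11 chains (29.0%, 32.3% and 35.5%, against 20.9%, 35.02% and 16.9% of all genes), the share in wild-type parietal bone being near that of all genes.

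**Figure D4:**
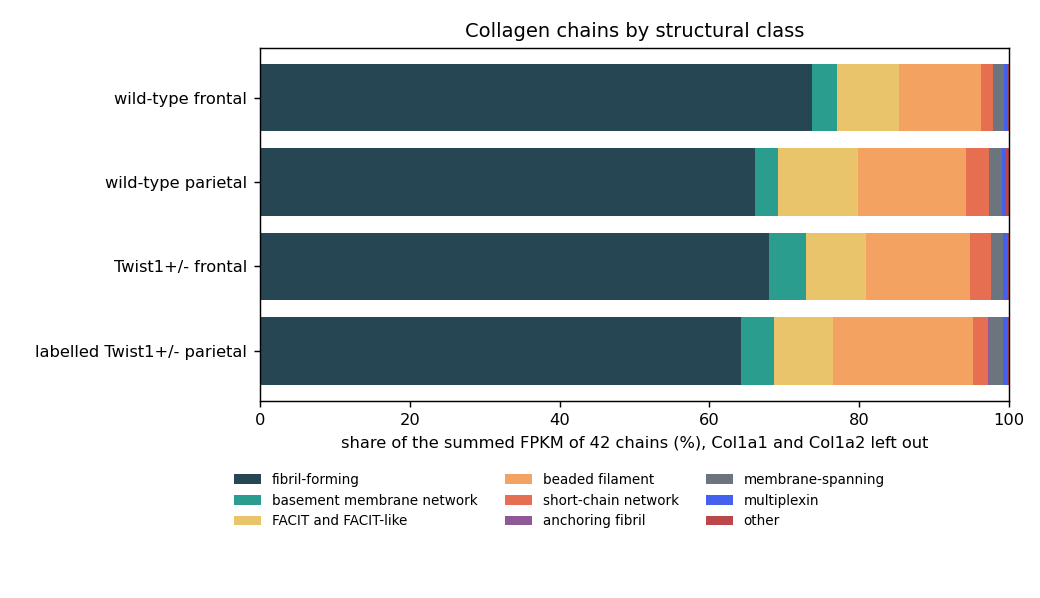
Share of the summed FPKM of 42 chains (horizontal axis, %) held by each structural class in each library (bars), with Col1a1 and Col1a2 left out because they are listed at 0 in 3 libraries. Fibril-forming chains hold 64.3% to 73.7% in every library, and the beaded filament share is 11.0% in wild-type frontal and 18.7% in labelled Twist1+/- parietal bone.

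Without Col1a1 and Col1a2, the 42 other chains summed to 1976 and 1981 FPKM for the wild-type frontal and parietal libraries, 1552 FPKM for Twist1+/- frontal bone and 2436 FPKM for labelled Twist1+/- parietal bone. The wild-type sums were nearly equal, while the composition differed. Col3a1 made up 24.6%, 41.7%, 19.98% and 28.5% of the sum in the order wild-type frontal, wild-type parietal, Twist1+/- frontal and labelled Twist1+/- parietal bone. The fibril-forming class as a whole, without collagen I, made up 73.7%, 66.1%, 67.9% and 64.3%, and collagen VI 11.0%, 14.4%, 13.9% and 18.7%. FACIT chains held 10.7% in wild-type parietal bone and 7.86% to 8.22% in the other libraries.

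**Figure D5:**
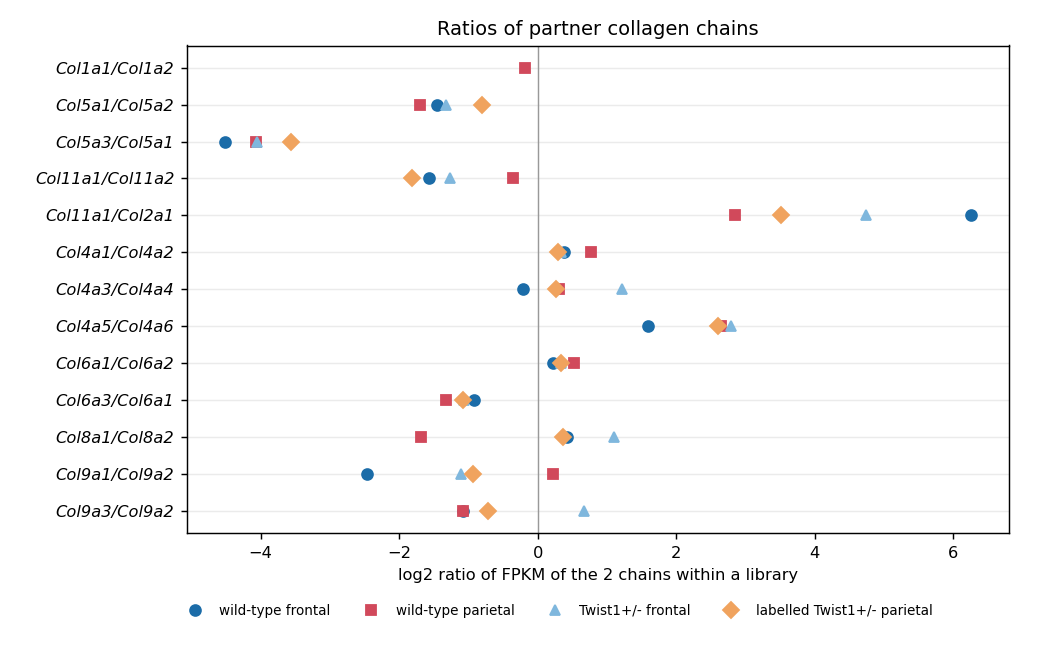
Log2 ratio of FPKM of 2 partner chains within a library (horizontal axis) for 13 pairs, 1 symbol per library. The points of Col4a1/Col4a2, Col6a1/Col6a2 and Col6a3/Col6a1 lie close together, with spans of 1.40-, 1.24- and 1.33-fold, and those of Col8a1/Col8a2, Col9a1/Col9a2 and Col11a1/Col2a1 lie 6.91-, 6.46- and 10.6-fold apart.

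Chains that assemble into the same trimer kept a narrow ratio in some types and not in others. The ratio of Col6a1 to Col6a2 was 1.17, 1.44, 1.26 and 1.27 in the order wild-type frontal, wild-type parietal, Twist1+/- frontal and labelled Twist1+/- parietal bone, and that of Col6a3 to Col6a1 was 0.529, 0.399, 0.477 and 0.474. The ratio of Col4a1 to Col4a2 was 1.30, 1.71, 1.27 and 1.22. These are obligate partners in the common collagen VI and collagen IV trimers, and their ratios spanned 1.24- to 1.40-fold over the 4 libraries while the level of Col6a1, for example, ran from 91.3 to 201 FPKM.

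The fibril-forming partners varied more. Col5a1 to Col5a2 was 0.365, 0.308, 0.3997 and 0.570, a span of 1.85-fold. As background, the common trimer of collagen V holds more Col5a1 than Col5a2 chains. Col11a1 to Col11a2 was 0.339, 0.779, 0.415 and 0.284, a span of 2.74-fold, with wild-type parietal bone apart from the others. Col11a1 to Col2a1, chains that share a trimer in cartilage, was 76.7, 7.23, 26.8 and 11.4, so that in every library Col11a1 was at least 7.23 times the level of Col2a1.

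The widest spans were in collagens VIII and IX. Col8a1 to Col8a2 was 1.34, 0.311, 2.15 and 1.29, so that Col8a2 was the higher chain in wild-type parietal bone only. Col9a1 to Col9a2 was 0.181, 1.17, 0.464 and 0.524, and Col9a3 to Col9a2 was 0.472, 0.472, 1.59 and 0.608, over chains of at most 8.61 FPKM. The ratios of the pairs Col4a3/Col4a4 and Col4a5/Col4a6 rest on values below 1 FPKM.

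Several of these partners are also neighbours in the genome (mm9). Col4a1 (chr8:11198423-11312826, reverse strand) and Col4a2 (chr8:11312805-11449287, forward strand) lie head to head, and their annotated first exons share 22 bases at chr8:11312805-11312826, shown because both starts fall within this stretch.
Col4a1 and Col4a2: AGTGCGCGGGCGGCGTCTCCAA
The other head to head pairs, Col4a4 with Col4a3 (71 bases apart) and Col4a6 with Col4a5 (1.31 kb apart), were both below 1 FPKM. Col6a2 and Col6a1 lie 85.2 kb apart on the same strand of chromosome 10. Col3a1 and Col5a2 lie tail to tail 24.6 kb apart on chromosome 1 and are among the most abundant chains, but differed in order: Col3a1 was higher in both parietal libraries and Col5a2 was highest in wild-type frontal bone. Col9a1 and Col19a1, 9.15 kb apart tail to tail, differed in level, with Col19a1 at 0.0219 to 0.135 FPKM.

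Genes that process and bind collagen were read beside the chains. Of 35 listed chaperones, modifying and crosslinking enzymes and their regulators, 30 are in the files and 29 were given a ratio in each comparison. Between the parietal libraries 1 of them was past 3-fold, Creb3l1, a membrane-bound transcription factor of the secretory pathway known to drive Col1a1 in osteoblasts, at 32.3 FPKM in wild-type and 132 FPKM in labelled Twist1+/- parietal bone, and at 74.3 and 86.6 FPKM in wild-type and Twist1+/- frontal bone. In the 3 other comparisons none was past 3-fold. Between the wild-type bones, this count of none among 29 stood against 3.77% of all genes more than 3-fold higher and 8.93% more than 3-fold lower. With 29 genes, the counts in the other comparisons lay near the shares of all genes. The median log2 ratios of the 29 were 0.18 between the parietal libraries, -0.29 between the frontal libraries, 0.05 between the wild-type bones and 0.50 between the bones labelled Twist1+/-.

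Serpinh1 was at 1085, 920.2, 652 and 1107 FPKM in the order used above, P4hb, a subunit of prolyl 4-hydroxylase, at 361, 471, 305 and 441 FPKM, and Ppib, a prolyl isomerase of procollagen folding, at 416, 963, 363 and 513 FPKM. Lox, which crosslinks fibrils, was at 124, 134, 139 and 153 FPKM, the narrowest range of these. Of 10 collagen receptors, all at or above 1 FPKM in every library, Itga2, the integrin subunit for collagen on platelets and other cells, was past 3-fold lower in the parietal library labelled Twist1+/- (1.37 FPKM) than in wild-type parietal bone (6.61 FPKM). The platelet receptor Gp6 was past 3-fold lower in wild-type parietal (1.21 FPKM) than in wild-type frontal bone (5.45 FPKM). No receptor was past 3-fold between the frontal libraries or between those labelled Twist1+/-. With 10 genes, a count of 1 or 0 is near the shares of all genes.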

How the data were processed

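Calvarial bones (frontal, parietal) of Twist1+/- and wild-type mice were profiled by poly(A) RNA-seq (single-end reads of 75 bases). The authors aligned reads with STAR 2.4.2a to mm9 and computed FPKM per gene with Cuffdiff (Cufflinks 2.2.1), and the deposited values are these FPKM. The Cuffdiff scaling and strand settings are not given in the sources used here. FPKM give no depth and the authors state only an average number of reads per replicate, so no counting interval is given.

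Ratios of FPKM were formed for 4 comparisons. A gene was given a ratio when both values were above 0 and the higher was at least 1 FPKM, and was called past 3-fold. With 1 library per group no test was made. Every chain is accounted for; chains that reached 1 FPKM are given with each value, and other genes come from lists of enzymes, receptors and 10 sets of tissue markers. The members and lists were chosen with earlier results of these data known. Gene models and sequences came from GENCODE M1 (mm9), which held 44 of 44 chains (1 by a RefSeq synonym) and coding transcripts for 20251 of 23946 symbols. Alternatives were pseudocounts of 1 and 0.1 FPKM, no floor, a floor of 10 FPKM, a 2-fold limit, zeros counted, scaling to the median ratio or to Gapdh, and subtraction of the median of 20 groups by GC content or length. The steps ran in Python 3.11.15 with pandas 2.3.3 and were tested on simulated data.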

Additional observations from a re-analysis of the deposited data

Results flagged for a closer look

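Col6a5, a chain that can replace Col6a3 in collagen VI, was the 1 chain of 31 that differed by more than 1.5-fold in opposite directions with the Twist1+/- label in the 2 bones. Its log2 ratio of Twist1+/- to wild-type was -2.04 in parietal bone, where 2.34 FPKM in wild-type stood against 0.571 FPKM in the library labelled Twist1+/-, and 1.73 in frontal bone, where 0.123 FPKM in wild-type stood against 0.408 FPKM in Twist1+/-. The frontal values are both below 1 FPKM, and with 1 FPKM added to each value the ratios became -1.09 and 0.33. The difference between the bones was not tested, since there is 1 library per group. In sign alone, 16 of the 31 chains had opposite directions in the 2 bones.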

How the results depend on the processing

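The number of chains past 3-fold between the parietal libraries (8) became 5 with a pseudocount of 1 FPKM, 4 with a floor of 10 FPKM and 14 with a 2-fold limit. The share of all genes went from 7.43% to 2.75%, 3.73% and 19.6% under the same settings. Between the frontal libraries the number of chains (0) became 2 without a floor and 2 with a 2-fold limit, while the share of all genes went from 3.34% to 7.37% and 6.65%. Between the wild-type bones the number of chains (8) became 3 with a floor of 10 FPKM, while the share of all genes went from 12.7% to 7.69%. Between the bones labelled Twist1+/- the number of chains (0) became 1 without a floor and 8 with a 2-fold limit. The share of all genes there went from 3.62% to 7.23% and 11.5%. Changing the floor also changes how many chains are given a ratio. The other settings left the counts of chains within 1.5 times. The median log2 ratio of the chains between the wild-type bones turned from 0.39 to -0.056 with Gapdh scaling, an alternative for counts and medians chosen after seeing the data; the other medians kept their sign. Of 744 log2 ratios of single chains under 6 alternatives, 703 kept their sign and side of the 3-fold limit, 11 went under the limit, 3 passed it and 27 small ratios changed sign, 16 of these under Gapdh scaling. Of 98 partner ratios under a pseudocount, 88 stayed within 1.5-fold and 10 moved, most of them of chains below 1 FPKM. No paired analysis was possible because there is 1 library per group, and for the same reason no replicate could be left out. Depth is unknown, so the error of chains near 1 FPKM is unknown too.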
